A study of Homo sapiens with 90 samples.

Results

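CYP1A1 is the gene of a cytochrome P450, and its transcript was measured here by 1 probe set, 205749_PM_at (Entrez gene 1543), which stands for 1 of 19774 genes in the table. The probe set was chosen by its gene symbol alone, and its log2 intensity was read in all 90 columns. The cells were HepG2, an established human liver tumour line, exposed for 24 h in multiwell plates. They received imazalil (an imidazole fungicide), fenbuconazole (a triazole fungicide) or 2,4-D, which is 2,4-dichlorophenoxyacetic acid, a herbicide of the chlorophenoxy class. There were 9 doses of each, spaced about 3-fold between 0.001 and 10 µM, with 3 arrays per dose. The solvent, DMSO at 0.2%, was present in all wells, and 3 control arrays came from cells given the solvent alone. The labels do not say whether the 3 arrays of a group came from separate cultures, so the p-values measure the spread between these arrays, which may be technical.

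CYP1A1 oxidises planar aromatic compounds such as polycyclic aromatic hydrocarbons. Its transcription is controlled by the aryl hydrocarbon receptor (AHR), a ligand-activated factor that waits in the cytoplasm bound to HSP90, moves to the nucleus with a ligand, pairs with ARNT and binds DNA elements with the core GCGTG. The transcript is low in unexposed liver cells and is widely used to read out AHR activity. The main elements of the human gene lie in an enhancer farther from the start site than the window shown here, and CYP1A2 is its neighbour, transcribed the other way.

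The start-site windows of CYP1A1 and CYP1A2 are shown because both are targets of AHR and CYP1A1 passed the test below while CYP1A2 did not. Each is the 250 bases before the start in RefSeq (GRCh38.p14), 5′ to 3′ on the gene's own strand, with GCGTG in capitals. The CYP1A1 window is chr15:74725529-74725778 on the minus strand and the CYP1A2 window is chr15:74748595-74748844 on the plus strand.
CYP1A1: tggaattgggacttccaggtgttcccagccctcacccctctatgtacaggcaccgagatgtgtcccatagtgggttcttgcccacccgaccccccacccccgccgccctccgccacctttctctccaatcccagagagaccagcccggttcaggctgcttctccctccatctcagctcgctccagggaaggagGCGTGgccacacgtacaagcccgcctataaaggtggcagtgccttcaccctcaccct
CYP1A2: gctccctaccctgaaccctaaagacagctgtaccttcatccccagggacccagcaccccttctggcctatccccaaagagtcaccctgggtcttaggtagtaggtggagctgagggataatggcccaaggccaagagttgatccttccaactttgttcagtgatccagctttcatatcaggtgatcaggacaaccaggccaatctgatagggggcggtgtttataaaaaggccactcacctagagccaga
The CYP1A1 window held this core at 1 place, bases -57 to -53 from the start, in a search of both strands, and a TATA box, read as TATAAA, at bases -32 to -27. The CYP1A2 window held a TATA box at bases -29 to -24 and no copy of the core. The core was found in the same window of 32.2% of 35116 promoters. A longer form that contains it, TNGCGTG, was found in 4.52% of promoters and not in the CYP1A1 window. Of CYP1A1 and the 15 other AHR targets listed, 14 had a window in the table, of which 8 held the core and 4 the longer form. These matches describe letters, not binding.

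The sets of the 3 compounds were normalized separately by the authors, and the lowest log2 intensity was 1.685 in the imazalil set, the highest 13.62 in the 2,4-D set. The 3 DMSO arrays were the same in all 3 sets, so the 90 columns came from 84 different arrays, and the error of the DMSO mean is common to the compounds. Across genes, the correlation between arrays of the same group lay between 0.994 and 0.998. Of 10 hepatocyte markers, 9 were measured and had medians between 10.1 and 13.1 on the log2 scale over the 90 columns, while the 11 markers of other cell types had medians between 2.58 and 4.19. A change in the number of cells that make a transcript and a change of RNA per cell cannot be told apart in such cultures.

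With imazalil, CYP1A1 rose at 3 and 10 µM and was the gene with the largest log2 change at 1, 3 and 10 µM. The 3 DMSO arrays of the imazalil set had 4.37, 4.85 and 4.63 on the log2 intensity scale. The arrays had 4.34, 4.43 and 5.24 at 0.001 µM, 4.91, 4.74 and 5.08 at 0.003 µM, and 4.77, 4.71 and 5.00 at 0.01 µM. They had 4.45, 4.67 and 4.56 at 0.03 µM, 4.68, 5.02 and 5.35 at 0.1 µM, and 4.72, 5.24 and 5.41 at 0.3 µM. Up to 0.3 µM the treated arrays overlapped with the DMSO arrays at every dose, although 2 of 3 arrays lay above all DMSO arrays at 0.003, 0.1 and 0.3 µM. From 1 µM the overlap ended, with 5.74, 5.58 and 5.99 at 1 µM, 6.55, 6.22 and 6.85 at 3 µM, and 7.48, 7.56 and 7.86 at 10 µM. At each of these 3 doses every array lay above every array of all lower doses and of DMSO, which held for 0.0405%, 0.0354% and 0.263% of all genes at 1, 3 and 10 µM.

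**Figure D1:**
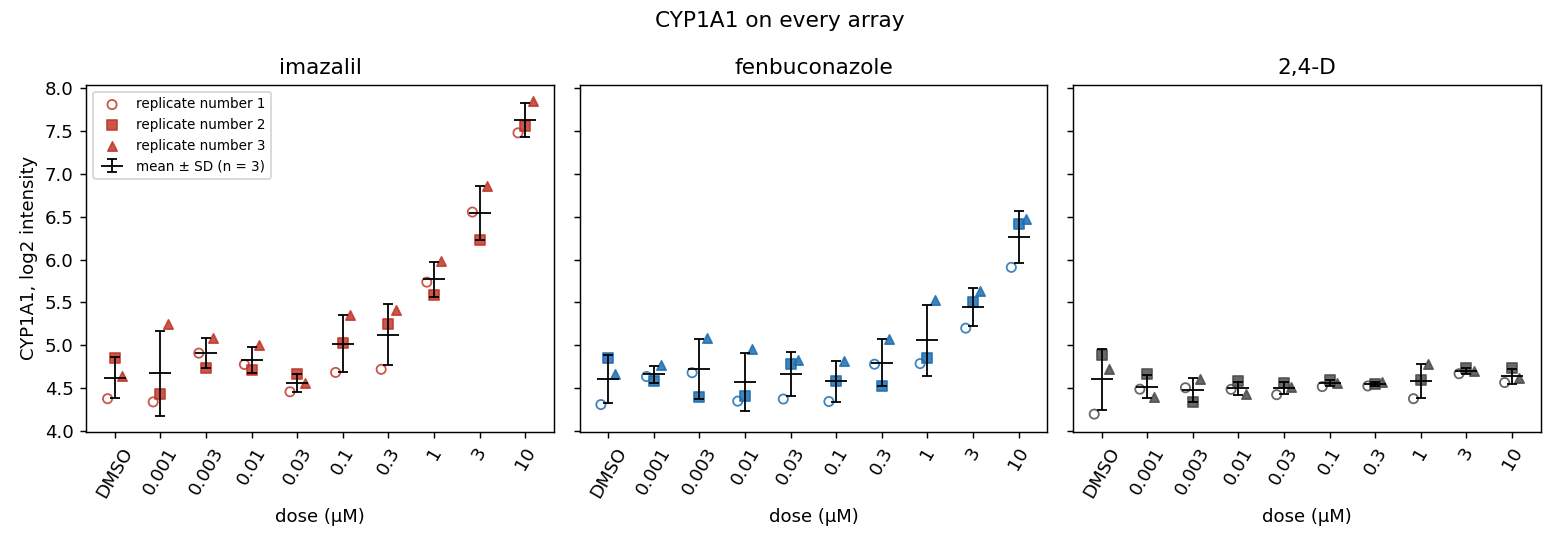
Log2 intensity of CYP1A1 on each array (vertical axis) against dose in µM, with DMSO at the left of each panel, for imazalil, fenbuconazole and 2,4-D. Markers give the replicate number of the labels and bars the mean ± SD of 3 arrays. The imazalil arrays reach 7.48 to 7.86 at 10 µM and the fenbuconazole arrays 5.91 to 6.47, while all 27 treated 2,4-D arrays lie below the highest DMSO array (4.88).

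At 10 µM imazalil CYP1A1 averaged 7.63 ± 0.20 against 4.62 ± 0.24 in DMSO (log2 intensity, SD, n = 3 each), a log2 change of 3.01 ± 0.21 (SE) or 8.08-fold (95% interval 5.99 to 10.9, adjusted p = 2.07e-09 by limma with Benjamini-Hochberg adjustment over all genes). Against the DMSO array of the same number, the 3 arrays were at 8.61, 6.56 and 9.33-fold. A total of 21 genes (0.106%) passed in that comparison. At 3 µM the change was 3.80-fold (2.82 to 5.12, adjusted p = 2.94e-05), and CYP1A1 was the 1 gene past the threshold (0.00506% of genes). At 1 µM it was 2.22-fold (1.65 to 2.99), first of all genes by size and by p, but with an adjusted p of 0.196 in limma. No gene passed there (0%), and 505 of 19774 genes, a share under 0.05, had an unadjusted p under 0.05. At 0.3 µM the change of CYP1A1 was 1.42-fold (1.05 to 1.91, adjusted p = 0.9996 in limma) and the third highest of all genes. The mean of the 6 lowest doses lay 0.23 ± 0.16 (SE) above DMSO on the log2 scale (adjusted p = 0.9995), within the spread between arrays.

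With fenbuconazole, CYP1A1 rose at 10 µM, to a lower level than with imazalil. Its DMSO arrays had 4.30, 4.85 and 4.66 in that set (log2 intensity). The 18 arrays of the 6 lowest doses, 0.001 to 0.3 µM, ran between 4.34 and 5.09, with group means between 4.57 and 4.79. At each of these doses 2 or 3 of the arrays lay at or below the highest DMSO array. The arrays had 4.78, 4.85 and 5.53 at 1 µM, then 5.20, 5.51 and 5.63 at 3 µM and 5.91, 6.41 and 6.47 at 10 µM. All 3 arrays lay above every DMSO array at 3 µM, as they did for 3.07% of genes, and at 10 µM above every array of all lower doses and DMSO, as they did for 0.121% of genes.

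At 10 µM fenbuconazole CYP1A1 averaged 6.26 ± 0.31 against 4.61 ± 0.28 in DMSO (log2 intensity, SD, n = 3 each), a log2 change of 1.65 ± 0.22 (SE) or 3.15-fold (2.32 to 4.28, adjusted p = 5.49e-04 by limma). A total of 3 genes (0.0152%) passed in that comparison, and CYP1A1 had the largest log2 change of all. The folds over the DMSO array of the same number were 3.04, 2.94 and 3.49. The call was lost without the arrays of replicate number 1 (log2 change 1.68, adjusted p = 0.104) or number 2 (1.70, adjusted p = 0.122) and with only the 2 groups in the fit (adjusted p = 0.0963), while the size stayed between 1.50 and 1.83 under the 16 alternatives. At 3 µM the change was 1.79-fold (1.32 to 2.43), the largest of all genes, but it did not pass (adjusted p = 0.9999 in limma). No gene did (0%), and 527 of 19774 genes, a share under 0.05, had an unadjusted p under 0.05. At 1 µM the change of CYP1A1 was 1.36-fold (1.00 to 1.85, adjusted p = 0.9998 in limma).

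With 2,4-D no dose moved CYP1A1 beyond the spread between arrays. The DMSO arrays of the 2,4-D set had 4.19, 4.88 and 4.73 (log2 intensity). The arrays had 4.37, 4.59 and 4.78 at 1 µM, 4.67, 4.74 and 4.69 at 3 µM and 4.56, 4.73 and 4.61 at 10 µM, and the 18 arrays of lower doses ran from 4.33 to 4.66. The DMSO arrays spread more widely than the treated arrays of any dose. At 10 µM CYP1A1 averaged 4.63 ± 0.08 against 4.60 ± 0.36 in DMSO (SD, n = 3 each), 1.02-fold (0.866 to 1.21, adjusted p = 0.99997 by limma). The interval rests on a spread pooled over all groups of the set (SD 0.151), below the 0.36 of the DMSO arrays. A rise of more than 1.21-fold is thus not excluded. No gene passed at this dose with limma (0%), and 783 of 19774 genes, a share under 0.05, had an unadjusted p under 0.05. The log2 changes over the 9 doses ran from -0.12 to 0.10.

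Over all doses, an F test of the 9 doses passed for CYP1A1 with imazalil (adjusted p = 3.66e-09, 1 of 7 genes, 0.0354%) and with fenbuconazole (adjusted p = 0.00242, 1 of 2 genes, 0.0101%), and not with 2,4-D (adjusted p = 0.983, all by limma). The fenbuconazole F test did not pass without the arrays of any 1 replicate number (adjusted p between 0.114 and 0.811). Set against the mean of the 3 lowest doses, which uses no DMSO array, 10 µM gave 7.11-fold with imazalil (5.57 to 9.07, adjusted p = 8.39e-11, 0.228% of genes passed), 3.06-fold with fenbuconazole (2.38 to 3.93, adjusted p = 2.95e-05, 0.0607% passed) and 1.10-fold with 2,4-D (0.959 to 1.26, adjusted p = 0.9998, 0% passed). Both azoles thus passed at 10 µM against a reference without DMSO arrays as well, although the DMSO arrays still entered the estimate of the spread.

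With both azoles the measured steps between neighbouring doses from 0.3 µM upwards were each larger than the one before. With imazalil the step from 0.3 to 1 µM was 0.65 on the log2 scale, that from 1 to 3 µM 0.78 and that from 3 to 10 µM 1.09 (SE 0.21 each). With fenbuconazole these steps were 0.26, 0.39 and 0.82 (SE 0.22 each), and with 2,4-D 0.04, 0.12 and -0.06 (SE 0.12 each). The largest, imazalil from 3 to 10 µM, was 2.13-fold (1.58 to 2.87) with an adjusted p of 0.0788 in limma, and no step of CYP1A1 passed. The slope per 10-fold dose from 3 to 10 µM exceeded that from 1 to 3 µM by 0.46 ± 0.73 with imazalil and by 0.74 ± 0.75 with fenbuconazole, and the difference was -0.37 ± 0.41 with 2,4-D (log2 per 10-fold dose, SE). The intervals of all 3 differences include 0, so neither a steepening nor a flattening towards 10 µM was detectable.

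**Figure D2:**
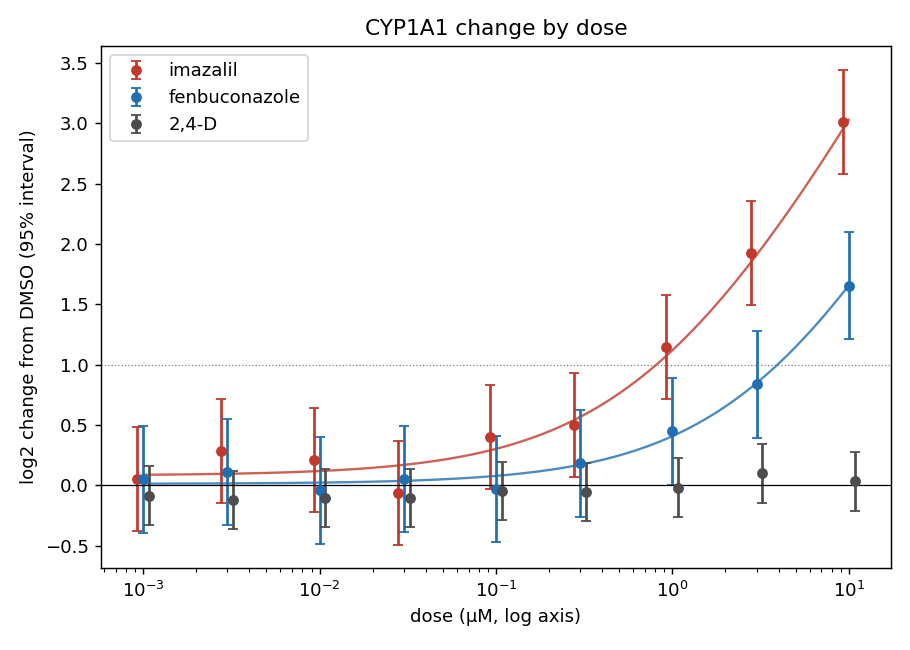
Log2 change of CYP1A1 from the DMSO mean (vertical axis, points with 95% intervals from limma) against dose in µM on a log axis. Points of one dose are drawn side by side, the lines are the fitted dose curves of imazalil and fenbuconazole, and the dotted line marks 2-fold above DMSO. The imazalil points lie above that line from 1 µM (1.15) and the fenbuconazole point at 10 µM (1.65), while the 2,4-D points stay between -0.12 and 0.10.

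Potency was read from a curve with a free baseline, an exponent and the dose at which the transcript is 2-fold above baseline. That dose was 0.938 µM with imazalil (0.549 to 1.46) and 4.03 µM with fenbuconazole (2.46 to 6.03), and the intervals do not overlap. The fenbuconazole dose was 4.29 times the imazalil dose, or 3.32 times with the exponent set to 1. In the arrays of replicate numbers 1, 2 and 3 taken alone, the 2-fold dose was 0.891, 1.13 and 0.837 µM with imazalil and 4.91, 3.80 and 3.38 µM with fenbuconazole, so the order was the same in each. The exponents were 0.80 (0.65 to 0.975) with imazalil and 0.83 (0.575 to 1.23) with fenbuconazole. Read straight off the group means, with linear interpolation on the log dose axis, imazalil reached 1.5-fold at 0.349 µM, 2-fold at 0.755 µM and 3-fold at 1.85 µM. Fenbuconazole reached the same levels at 1.47, 3.80 and 9.02 µM. No 2-fold dose could be given for 2,4-D within the doses used, and the lower limit of the fitted dose, 16.4 µM, lies above the highest dose.

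No ceiling could be placed for either azole. Adding a top to the curve removed little of the residual spread (F = 0.0771 with imazalil, 0.0252 with fenbuconazole and 1.10 with 2,4-D, on 26 residual degrees of freedom). The lower 95% limit of the top was 7.5-fold with imazalil and 2.7-fold with fenbuconazole, each near the fold measured at 10 µM, and no upper limit was found up to 10000-fold. The maximum of either compound is thus not given by these doses.

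CYP1A1 followed log10 dose with imazalil at r = 0.831 and rho = 0.805 and with fenbuconazole at r = 0.723 and rho = 0.661 over the 27 treated arrays each. The permutation p of r was 1e-05 for both, the smallest that 100000 resamples can give, and the p of rho was 1e-05 and 2.3e-04 (adjusted over the 3 compounds, 3e-05 and 3.45e-04). The lowest and the highest dose lie equally far from the middle dose. Without the 2 arrays of highest CYP1A1 value among them, both at 10 µM with either azole, r was 0.797 and 0.650. Within each replicate number r ran from 0.818 to 0.887 with imazalil and from 0.721 to 0.813 with fenbuconazole. The slope was 0.64 ± 0.08 per 10-fold dose with imazalil (log2, SE, adjusted p = 7.12e-05, 0.137% of genes passed) and 0.32 ± 0.06 with fenbuconazole (adjusted p = 0.0194, 0.0152% passed, limma). The imazalil slope did not pass without the arrays of number 2 (0.64, adjusted p = 0.0523), and the fenbuconazole slope failed to pass when any 1 of the 3 numbers was left out (0.30 to 0.35, adjusted p from 0.142 to 0.280).

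With 2,4-D a small trend was present among the treated arrays alone. Here r was 0.534 and rho 0.554 (permutation p = 0.00439 and 0.00321, which the adjustment over 3 compounds leaves as they are). Without the 2 highest-valued arrays of the lowest and highest dose, 1 of them at 10 µM, r was 0.591. Within replicate numbers r was 0.376, 0.576 and 0.715. The slope was 0.05 ± 0.01 per 10-fold dose (log2, SE), number 77 of all genes by p, with an adjusted p of 0.99999 in limma. No gene passed (0%), and 901 of 19774 genes, a share under 0.05, had an unadjusted p under 0.05. The treated group means ran from 4.48 to 4.70, inside the range of the 3 DMSO arrays, 4.19 to 4.88.

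The compounds were compared at each dose after subtraction of the DMSO mean of their own set, in 3 pairs at 9 doses. Imazalil minus fenbuconazole was 0.70 at 1 µM (log2, 1.63-fold, 1.19 to 2.22, adjusted p = 0.759), 1.09 at 3 µM (2.12-fold, 1.56 to 2.90, adjusted p = 0.155) and 1.36 at 10 µM (2.57-fold, 1.88 to 3.50, adjusted p = 0.00279, limma). CYP1A1 was 1 of 8 genes (0.0405%) past the threshold at 10 µM and had the largest difference at 3 and 10 µM. At these 3 doses all imazalil arrays lay above all fenbuconazole arrays, as they did for 7.42%, 7.16% and 7.91% of genes, but at 1 µM by little, since the lowest imazalil array was 0.97 above DMSO and the highest fenbuconazole array 0.92. The call at 10 µM was lost without number 1 (1.29, adjusted p = 0.173) or number 2 (1.46, adjusted p = 0.240).

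Imazalil minus 2,4-D was 1.17 at 1 µM (log2, adjusted p = 3.32e-04), 1.83 at 3 µM (adjusted p = 1.88e-09) and 2.98 at 10 µM (7.88-fold, 6.23 to 9.96, adjusted p = 1.02e-16, limma). CYP1A1 was the 1 gene that passed at 1 and at 3 µM (0.00506% each) and 1 of 50 at 10 µM (0.253%). The 1 µM call was lost without number 1 (1.16, adjusted p = 0.202) or number 2 (1.24, adjusted p = 0.338). Fenbuconazole minus 2,4-D was 0.47 at 1 µM (adjusted p = 0.748), 0.74 at 3 µM (adjusted p = 0.564) and 1.62 at 10 µM (3.07-fold, 2.42 to 3.90, adjusted p = 1.02e-07, 1 of 18 genes, 0.091%). All imazalil arrays lay above all 2,4-D arrays at every dose but 0.001 and 0.03 µM, as they did for 4.26% of genes at 0.003 µM, 4.64% at 0.01 µM, 9.71% at 0.1 µM, 4.24% at 0.3 µM, 8.66% at 1 µM, 5.88% at 3 µM and 6.81% at 10 µM. At 3 and 10 µM all fenbuconazole arrays did, as for 4.04% and 5.22% of genes. From 0.001 to 0.3 µM no pair passed in limma, and the differences of the 18 comparisons ran from -0.11 to 0.56 on the log2 scale. With joint quantile normalization imazalil minus 2,4-D passed at 0.1 µM (0.72, adjusted p = 0.0198 by limma), against 0.45 (adjusted p = 0.163) as deposited. That alternative used the DMSO columns of the fenbuconazole set for all 3 sets. A difference between the separately normalized sets was thus not taken off and cannot be told apart from one between compounds. The 95% intervals of the 18 differences as deposited reached up to 0.90.

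**Figure D3:**
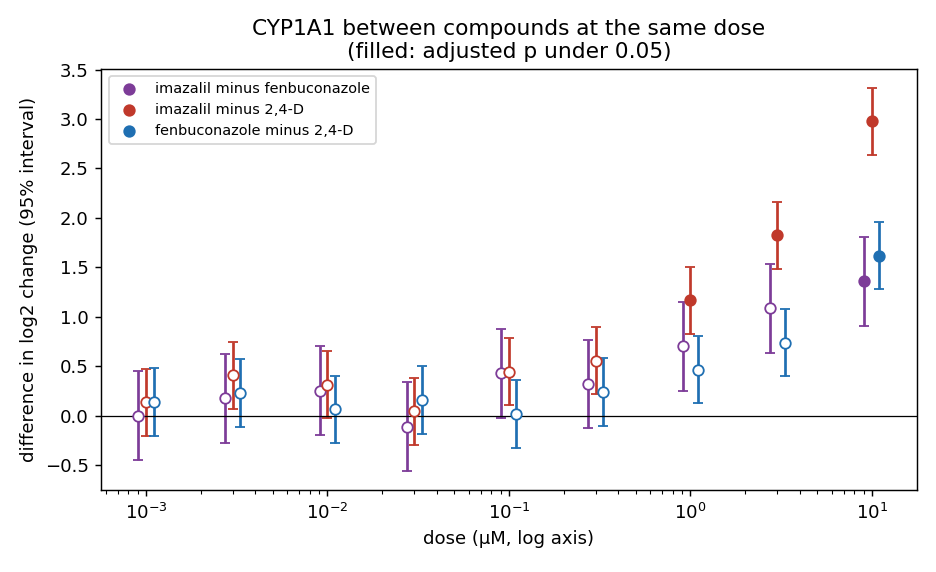
Difference of the log2 change of CYP1A1 between compounds at the same dose (vertical axis, with 95% intervals from limma) against dose in µM on a log axis, for the 3 pairs. Filled points have an adjusted p under 0.05, which holds for imazalil minus 2,4-D at 1, 3 and 10 µM (1.17, 1.83 and 2.98) and for the other two pairs at 10 µM.

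Averaged over 1, 3 and 10 µM, imazalil exceeded fenbuconazole by 1.05 on the log2 scale (2.07-fold), imazalil exceeded 2,4-D by 1.99 (3.98-fold) and fenbuconazole exceeded 2,4-D by 0.94 (1.92-fold). In an exact two-sided permutation test of the compound labels within each dose (8000 relabellings, 9 arrays each), the p was 2.5e-04, 2.5e-04 and 5e-04, and 3.75e-04, 3.75e-04 and 5e-04 after adjustment over the 3 pairs, where 2.5e-04 is the smallest the design allows. The azoles differ in the ring, an imidazole in imazalil and a triazole in fenbuconazole, and in the groups around it. Each compound's arrays were normalized as a set, so a difference between compounds and a difference between sets cannot be told apart. The same DMSO array, that of number 1, had 4.37 in the imazalil set, 4.30 in the fenbuconazole set and 4.19 in the 2,4-D set. In the same order of sets, number 2 had 4.85, 4.85 and 4.88 and number 3 had 4.63, 4.66 and 4.73. The DMSO means that were subtracted were 4.62, 4.61 and 4.60.

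The spread of CYP1A1 was not the same for all arrays. The pooled SD within groups was 0.281 with imazalil, 0.289 with fenbuconazole and 0.151 with 2,4-D (log2, 20 degrees of freedom each). Arrays of replicate number 3 were the highest of their group in 8 of 10 imazalil groups and 9 of 10 fenbuconazole groups, and those of number 1 in none. In the 2,4-D set, number 2 was the highest in 7 of 10 groups. The number equals a plate code in the labels, whose meaning is not stated, and each group held 1 array of each number. Within groups the values of CYP1A1 went down as the interquartile range of the array's values went up (r = -0.30 with imazalil, -0.53 with fenbuconazole and -0.45 with 2,4-D over 30 columns each, as a description). With that range as a covariate the changes at 10 µM were 3.07 with imazalil, 1.55 with fenbuconazole and 0.02 with 2,4-D on the log2 scale, against 3.01, 1.65 and 0.04 without it.

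Among the other genes listed, only ALAS1, of haem and electron supply, passed, and only with 10 µM imazalil. Of 8 genes of the AHR complex 7 were measured, and 0 of 7 passed at 1, 3 or 10 µM with any compound. Since at most 0.106% of all genes passed in any of these comparisons (10 µM imazalil), a count of 0 is near the background and says nothing particular of the list. AHR itself averaged 8.16 ± 0.13 with 10 µM imazalil against 7.98 ± 0.28 in DMSO, a log2 change of 0.18 ± 0.17 (SE), and with fenbuconazole its change was -0.03 ± 0.18. ARNT, its partner, had changes of -0.00 ± 0.16 with imazalil and -0.17 ± 0.16 with fenbuconazole. ARNT2, a relative of ARNT singled out after its values were seen, had a measured change at 10 µM of -0.06 ± 0.19 with imazalil, 0.24 ± 0.16 with fenbuconazole and 0.37 ± 0.19 with 2,4-D. AHRR, the repressor that AHR induces, averaged 2.61 with imazalil against 2.63 in DMSO and 2.48 with fenbuconazole against 2.62 in DMSO (log2 intensity), below the median of every array of both sets, and whether it was above background was not tested. HSP90AA1, HSP90AB1 and PTGES3, chaperones of the unbound receptor, lay between -0.12 and 0.06 with both. The intervals of all these changes include 0. The median of the 7 at 10 µM was -0.01 with imazalil and -0.09 with fenbuconazole, beside medians of -0.00 for all 19774 genes in both.

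Of 15 other AHR targets 13 were measured, and 0 of 13 passed at 1, 3 or 10 µM with any compound, which is again near the background of at most 0.106%. At 10 µM imazalil 11 of 13 had a change above 0, as had 48.6% of all genes, with a median of 0.09, and no member had an unadjusted p under 0.05. At 10 µM fenbuconazole 9 of 13 were above 0, as were 49.7% of all genes, with a median of 0.05. There 1 member had an unadjusted p under 0.05 in limma, as had 938 of 19774 genes. CYP1A2, the neighbouring P450 of drug metabolism, had changes of 0.19 ± 0.15 with imazalil and 0.05 ± 0.14 with fenbuconazole (log2, SE), and its second probe set had 0.03 ± 0.16 with imazalil and 0.30 ± 0.22 with fenbuconazole. Over all columns the first averaged 3.88 and the second 2.97 (log2 intensity), where the array medians of both azole sets ran from 2.95 to 3.07. Whether either was above background was not tested. CYP1B1, a family member found mainly outside the liver, averaged 2.78 with imazalil against 2.80 in DMSO and 2.78 with fenbuconazole against 2.76 in DMSO (log2 intensity), like AHRR below the median of every array of both sets, so that a level above background was not shown. Among others, the probe sets of CYP1A2, CYP1B1, ARNT, HSP90AA1, NQO1, UGT1A6, ALAS1 and CYB5A carry suffixes (_s_at or _x_at) of designs that can match more than 1 transcript, so their values are less certain. TIPARP, which limits AHR activity, had 0.15 ± 0.08 with imazalil and 0.07 ± 0.07 with fenbuconazole. NQO1, a quinone reductase that NRF2 also controls, had 0.10 ± 0.06 with imazalil and 0.08 ± 0.06 with fenbuconazole. With 2,4-D at 10 µM 10 of 13 targets were above 0, as were 50.3% of all genes, with a median of 0.04.

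The last list held 7 genes that supply P450 enzymes with haem and electrons, and all 7 were measured. ALAS1, the rate-limiting enzyme of haem synthesis, was the 1 member past the threshold, with imazalil at 10 µM. It averaged 7.87 ± 0.03 in imazalil against 7.35 ± 0.01 in DMSO (log2 intensity, SD, n = 3 each), a change of 0.52 ± 0.09 (SE, 1 of 21 genes, 0.106% of all, adjusted p = 0.00784 by limma). Its slope per 10-fold dose of imazalil did not pass (adjusted p = 0.136 by limma). With 10 µM fenbuconazole the change of ALAS1 was 0.21 ± 0.08 (adjusted p = 0.950). CYB5A, an electron donor to P450 enzymes, had a change of 0.32 ± 0.07 with imazalil that did not pass (adjusted p = 0.0826 by limma). POR, the reductase that P450 enzymes depend on, had 0.02 ± 0.08, and HMOX1, which breaks haem down, 0.02 ± 0.07 with imazalil. With 2,4-D at 10 µM the 7 changes ran from -0.10 to 0.05.

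**Figure D4:**
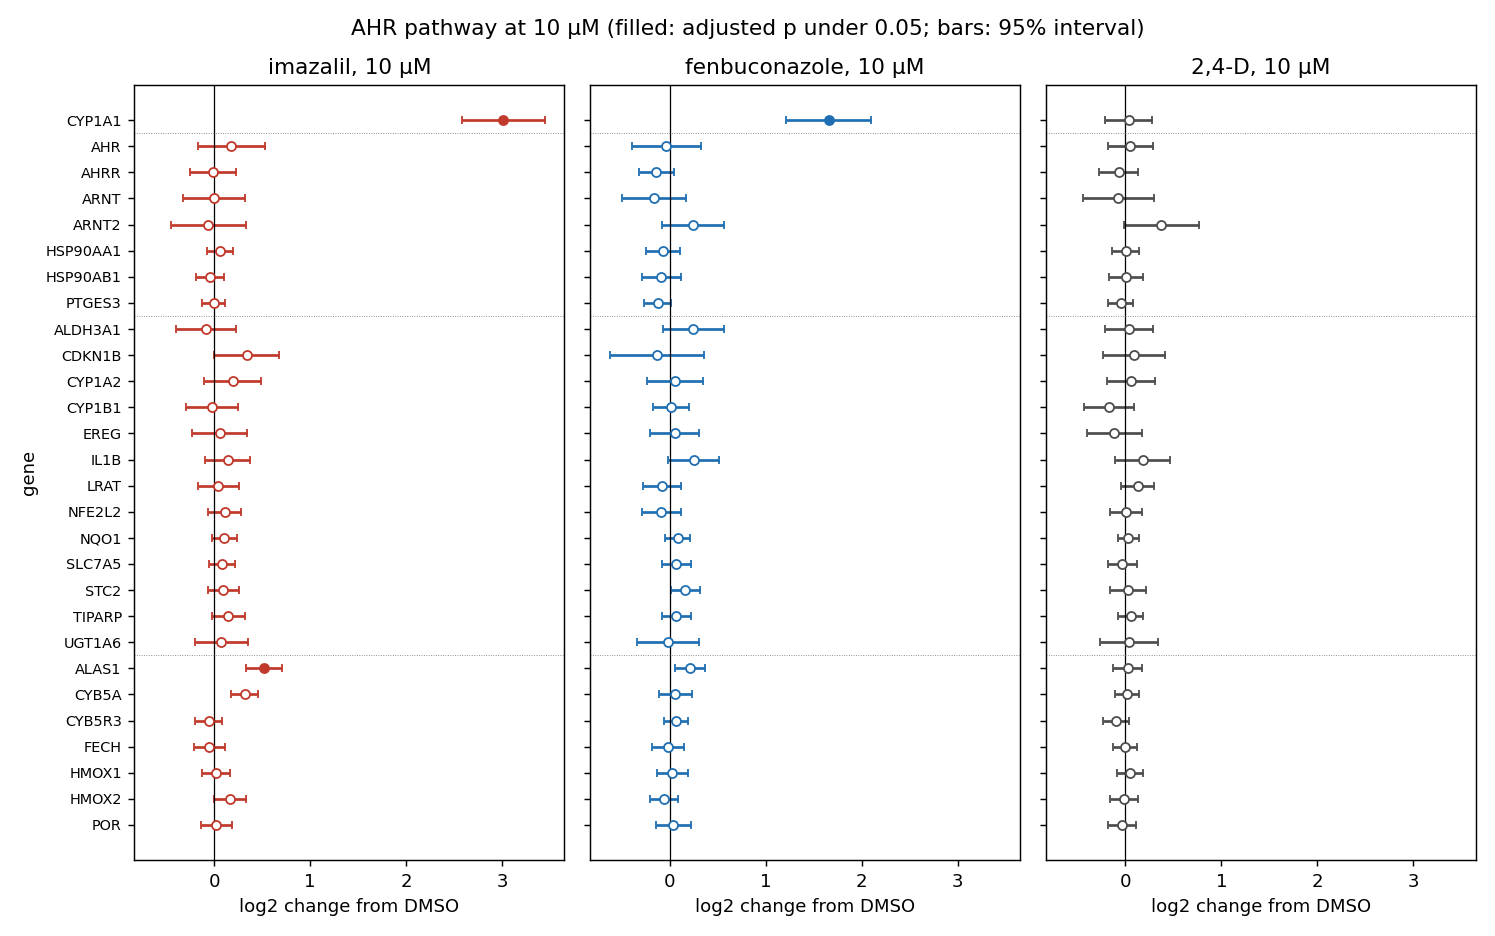
Log2 change from DMSO at 10 µM (horizontal axis, with 95% intervals from limma) of CYP1A1 and of the measured genes of the AHR complex, of other AHR targets and of haem and electron supply, separated by dotted lines, for imazalil, fenbuconazole and 2,4-D. Filled points have an adjusted p under 0.05, which holds for CYP1A1 with imazalil (3.01) and fenbuconazole (1.65) and for ALAS1 with imazalil (0.52).

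The genes with the pattern most like CYP1A1 were ranked by Pearson's r over the 27 treated group means, as a description, since the points of a set share their arrays' normalization and all share the DMSO arrays. They were ALAS1 (r = 0.903), LINC00673, a long noncoding RNA (0.860), SOS1, an exchange factor of RAS (0.842), CYP24A1, the enzyme that inactivates vitamin D (0.841), and CYB5A (0.817). At 10 µM imazalil their log2 changes were 0.52 for ALAS1, 0.28 for LINC00673, 0.45 for SOS1, 0.69 for CYP24A1 and 0.32 for CYB5A, and that of CYP1A1 was 3.01. SOS1 and CYP24A1 passed there (adjusted p = 0.00277 for each by limma), as did ALAS1. At 10 µM fenbuconazole the changes ran from 0.06 for CYB5A to 0.27 for SOS1, and none of the 5 passed. The ranking depended on the measure and on the top doses. Of the 5, 0 were among the top 5 by Spearman's rho, 1 over the 9 imazalil groups alone and 2 without the 10 µM groups.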

How the data were processed

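HepG2 cells exposed to imazalil, fenbuconazole or 2,4-D for 24 h were set against DMSO-treated cells on HT HG-U133+ PM arrays (Affymetrix). Values as deposited are log2 probe set intensities that, per the labels, the authors normalized by RMA within each compound's set of 27 treated arrays and 3 DMSO arrays. The submitters' notes list Partek beside RMA, with versions not given in the sources used here. RMA was run on the arrays of a set together. In the main fits, therefore, no level was set against one of another set before its own DMSO mean had been taken off. The joint quantile normalization, an alternative, differs. It started from the separately normalized values and used the DMSO columns of the fenbuconazole set for all 3 sets. A difference between RMA runs is thus not taken off with the DMSO mean there. The table held 54715 probe sets, of which 102 were controls and 40914 had 1 gene symbol. Each gene was represented by its probe set with the highest mean, which gave 19774 genes, with no filter on dim genes, and 0 columns were left unused.

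Groups were taken from the labels. For each set, lmFit and eBayes of limma 3.58.1 in R 4.3.3 were applied with 1 mean per group and no block, and pairs of compounds were fitted on the DMSO-centred treated columns of both. All tests are two-sided. Benjamini-Hochberg adjustment ran over all genes of a contrast, with a threshold of 0.05, and intervals are 95% intervals. The dose curve was y = a + log2(1 + (dose/k) to the power h) with k the dose of a 2-fold rise and h between 0.2 and 4, fitted by least squares with profile likelihood limits (Python 3.11.15, scipy 1.17.1), and a top was added to test for a ceiling. Correlations used 100000 permutations. The scripts were tested on simulated data. Precision is limited by the 3 arrays of a group. Alternatives were a replicate block, joint quantile normalization, other priors and filters, and left-out arrays. The gene, the lists and the 5 most similar genes to be named were chosen by rules written with earlier results of these data known.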

Additional observations from a re-analysis of the deposited data

Results flagged for a closer look

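The response of CYP1A1 differed between compounds at the same dose by the test of the difference itself in 5 of 27 comparisons (limma, adjusted p under 0.05 over all genes). Imazalil minus fenbuconazole was 1.36 at 10 µM on the log2 scale. Imazalil minus 2,4-D was 1.17 at 1 µM, 1.83 at 3 µM and 2.98 at 10 µM. Fenbuconazole minus 2,4-D was 1.62 at 10 µM. In each of the 5, all 3 arrays of the compound with the stronger response lay above all 3 of the other, each taken minus its DMSO mean. At 10 µM the same held for 7.91% of all genes for imazalil minus fenbuconazole and for 5.22% for fenbuconazole minus 2,4-D. For imazalil minus 2,4-D it held for 8.66%, 5.88% and 6.81% at 1, 3 and 10 µM. Groups of 3 arrays were not tested for single arrays far from the others.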

How the results depend on the processing

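Imazalil at 3 and at 10 µM kept direction and call under all 16 alternatives run for each. The 2-fold doses stayed within their intervals, from 0.867 to 1.37 µM with imazalil and from 3.69 to 4.54 µM with fenbuconazole. Across genes, replicate numbers were not shown to pair the arrays: in 6 of 27 treated groups all 3 same-numbered treated and DMSO arrays deviated together from their group means with a correlation over 0.1 (single values from -0.36 to 0.41). For CYP1A1 itself, number 3 was the highest in 8 of 10 imazalil and 9 of 10 fenbuconazole groups, though not in DMSO. The main fits had no block, so this difference stayed in their spread. With a replicate block CYP1A1 also passed at 1 µM imazalil (1.15, adjusted p = 0.00225), in the imazalil step from 3 to 10 µM (1.09, adjusted p = 0.00187) and between imazalil and fenbuconazole at 3 µM (1.09), and the counts called at 10 µM were 26 with imazalil and 4 with fenbuconazole. Joint quantile normalization brought past the threshold imazalil minus fenbuconazole (1.13) and fenbuconazole minus 2,4-D (0.89) at 3 µM and imazalil minus 2,4-D at 0.1 µM (0.72). All 3 sets then shared the DMSO columns of the fenbuconazole set, so a difference between sets was not taken off. With only the 2 groups compared the change at 10 µM fenbuconazole was 1.65 and no longer passed, with fewer arrays behind the spread.

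Leaving out replicates gave 1.50 to 1.83 for 10 µM fenbuconazole, F values of 6.79 to 15.0 (adjusted p from 0.114 to 0.811) and slopes of 0.30 to 0.35 with fenbuconazole, slopes of 0.63 to 0.65 with imazalil, 1.29 to 1.46 for imazalil minus fenbuconazole at 10 µM and 1.10 to 1.24 for imazalil minus 2,4-D at 1 µM. Fewer arrays stood behind each.

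The count of genes called at 10 µM was 3 with fenbuconazole, 10 with a trended robust prior, 14 without dim genes, 0 with only the 2 groups and 0 to 4 without a replicate. It was 21 with imazalil, 64 with joint normalization, 36 with the trended robust prior, 2 with only the 2 groups and 2 to 20 without a replicate, and 0 with 2,4-D but 27 with joint normalization. Under joint normalization the imazalil and 2,4-D arrays were set against DMSO columns from the fenbuconazole set. Treatment and set cannot be told apart in those counts. The causes of the shifts in count were not tested. The 5 genes most like CYP1A1 shared 0, 1 and 2 members with those by Spearman's rho, over imazalil alone and without 10 µM.

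Differences near 0, none of them past the threshold, changed sign. Under joint normalization these were -0.056 and -0.12 for 2,4-D at 3 and 10 µM, 0.00426 for fenbuconazole at 0.01 µM and 0.00656 for imazalil at 0.03 µM. With the interquartile range as a covariate they were 0.021 and 0.059 for 2,4-D at 0.1 and 1 µM, -0.00426 and -9.23e-04 for fenbuconazole at 0.001 µM and over the 6 lowest doses, and -0.012, -0.092 and -0.16 for fenbuconazole minus 2,4-D at 0.001, 0.01 and 0.1 µM. Without a replicate the ranges that crossed 0 were, for 2,4-D, -0.27 to 0.037 at 0.001 µM, -0.33 to 0.094 at 0.003 µM, -0.27 to 0.0052 at 0.03 µM, -0.23 to 0.076 at 0.1 µM, -0.25 to 0.084 at 0.3 µM, -0.22 to 0.12 at 1 µM, -0.10 to 0.24 at 3 µM, -0.17 to 0.18 at 10 µM, -0.28 to 0.040 over the 6 lowest doses and -0.053 to 0.13 for the step from 0.3 to 1 µM. For fenbuconazole they were -0.086 to 0.21 at 0.001 µM, -0.043 to 0.40 at 0.003 µM, -0.21 to 0.17 at 0.01 µM, -0.00218 to 0.12 at 0.03 µM, -0.12 to 0.095 at 0.1 µM and -0.046 to 0.24 over the 6 lowest doses, and for imazalil -0.23 to 0.29 at 0.001 µM and -0.13 to 0.00287 at 0.03 µM. Between compounds they were -0.25 to 0.18 for imazalil minus fenbuconazole at 0.001 µM, -0.26 to 0.37 and -0.00233 to 0.14 for imazalil minus 2,4-D at 0.001 and 0.03 µM, and -0.010 to 0.23, -0.20 to 0.22 and -0.14 to 0.17 for fenbuconazole minus 2,4-D at 0.001, 0.01 and 0.1 µM.

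Among the treated arrays, r with log10 dose under joint normalization or without a replicate, alternatives chosen after seeing the data, was 0.809 to 0.858 with imazalil, 0.698 to 0.758 with fenbuconazole and 0.444 to 0.643 with 2,4-D. The mean differences over 1, 3 and 10 µM under the same alternatives were 0.96 to 1.14, 1.84 to 2.18 and 0.79 to 1.11 for imazalil minus fenbuconazole, imazalil minus 2,4-D and fenbuconazole minus 2,4-D. The number of arrays limits the precision, and the spread of 3 DMSO arrays enters every comparison with DMSO.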
